A study of Homo sapiens with 4 samples.

Results

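CDC42, RAB10, ELAVL1, EIF2S1, TIMP2, CD47, MTDH and FNDC3B are 8 human genes known for mRNAs that end at more than 1 poly(A) site. Their poly(A) regions were taken from a genome-wide table by position, strand by strand, within a fixed hg19 window for each gene. The windows held 46 of the 31081 regions of the table and 26921 reads, 0.158% of all reads. The study sequenced poly(A) sites in 4 libraries of the line DICER(ex5), which was derived from HCT116, a human colon cancer line, and is labelled a DICER hypomorph. Dicer matures microRNAs by cutting their precursors. All libraries carry the same genotype, no treatment is labelled, and the series has no parental control, so the comparisons are between poly(A) sites of a gene and between libraries.

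A pre-mRNA is cut downstream of a poly(A) signal and then receives its tail. Where a 3' untranslated region holds several such signals in tandem, the choice of site sets how long that region is, while the encoded protein stays the same. A longer 3' untranslated region can carry more sites for microRNAs and RNA-binding proteins. CD47 is a known case, in which the long form directs the protein to the cell surface.

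Reads are meant to mark the junction of a transcript with its tail. The cDNA primer ends in oligo(dT), which is shown because it decides what is counted. It is a run of T followed by an anchor of 2 bases, the first any base but T and the other any base.
oligo(dT) end of the primer: tttttttttttttttttttt
The anchor holds the primer at the last bases before a run of A, which is the tail or, in some cases, an A-rich stretch inside the transcript; regions were not sorted by this. Reads come from the primed end, so reads at the tail do not grow in number with transcript length. Levels were therefore set side by side between genes as CPM, which are counts scaled to the library total. A gene's level sums all regions of its window, so any reads primed inside the transcript are included.

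The libraries held 2163977 to 5713530 reads. Epithelial markers were read in all 4 libraries: EPCAM at 906 to 1124 CPM, KRT18 at 889 to 1054, CDH1 at 50.8 to 78.2 and KRT8 at 3.70 to 37.4. No region lay in the window of PTPRC, a leukocyte marker, and COL1A1, a fibroblast marker, had 7.0 to 12.1 CPM. DICER1 itself had 40.7, 37.4, 21.5 and 20.8 CPM in libraries 1 to 4. Its 3' end reads do not cover the disrupted exon, so they do not check the genotype. The libraries differed by unequal amounts, more between 1 or 2 and 3 or 4 than within these pairs, and no label gives a batch; values are therefore given for each library.

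Gene levels ranged 8.71-fold, from FNDC3B to MTDH. MTDH, a membrane and nuclear protein raised in many tumours, had 399, 434, 360 and 362 CPM in libraries 1 to 4, a mean of 389 ± 35.0 (SD, n = 4). EIF2S1, the alpha subunit of the initiation factor that brings the first tRNA to the ribosome, had 268, 281, 311 and 330 CPM (298 ± 28.0; SD, n = 4). TIMP2, an inhibitor of matrix metalloproteinases, had 280, 302, 267 and 274 CPM (281 ± 15.1; SD, n = 4). EIF2S1 and TIMP2 overlapped, with EIF2S1 higher in 2 of 4 libraries.

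ELAVL1, also called HuR, binds AU-rich elements in other mRNAs; it had 200, 156, 219 and 254 CPM (207 ± 41.1; SD, n = 4). CDC42, which controls actin and cell polarity, had 118, 123, 201 and 180 CPM (156 ± 41.5; SD, n = 4). RAB10, a GTPase of vesicle transport, had 124, 112, 156 and 147 CPM (135 ± 20.7; SD, n = 4). The ranges of ELAVL1 and CDC42 overlapped, although ELAVL1 was higher in 4 of 4 libraries. Those of CDC42 and RAB10 overlapped too, and RAB10 was the higher in library 1.

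CD47, the surface protein that restrains phagocytes, had 59.3, 57.3, 63.4 and 60.2 CPM (60.0 ± 2.52; SD, n = 4), the narrowest relative range of the 8. FNDC3B, a membrane protein with fibronectin type III domains, was lowest with 37.8, 39.3, 49.7 and 51.7 CPM (44.6 ± 7.10; SD, n = 4). Both lay below the other 6 genes in every library, with no overlap between them. No adjusted test was made of these levels, since the libraries form 1 group. In bulk RNA, fewer cells with a transcript and less of it per cell cannot be told apart.

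A region counted as a used site ("passing") when it had at least 10 reads over the 4 libraries and at least 5% of the reads of its gene. Of the 46 regions, 20 passed and 26 fell below the share minimum. CDC42, ELAVL1, CD47 and EIF2S1 had 2 passing regions each, and RAB10, TIMP2, MTDH and FNDC3B had 3. The passing region closest to the minimum was that of MTDH at 98673364, with 6.01% of the gene's reads, and the closest one below it was that of RAB10 at 26357947, with 4.60%. Reads outside the passing regions made up 1.06% of those of TIMP2 at the lowest and 15.9% of those of RAB10 at the highest. The distal share is the part of the reads of all passing regions, in percent, that lay at the most 3' of them. The median width of its 95% Wilson interval over genes and libraries was 6.43 percentage points, from 3.60 for CDC42 in library 3 to 19.7 for FNDC3B in library 2.

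**Figure D1:**
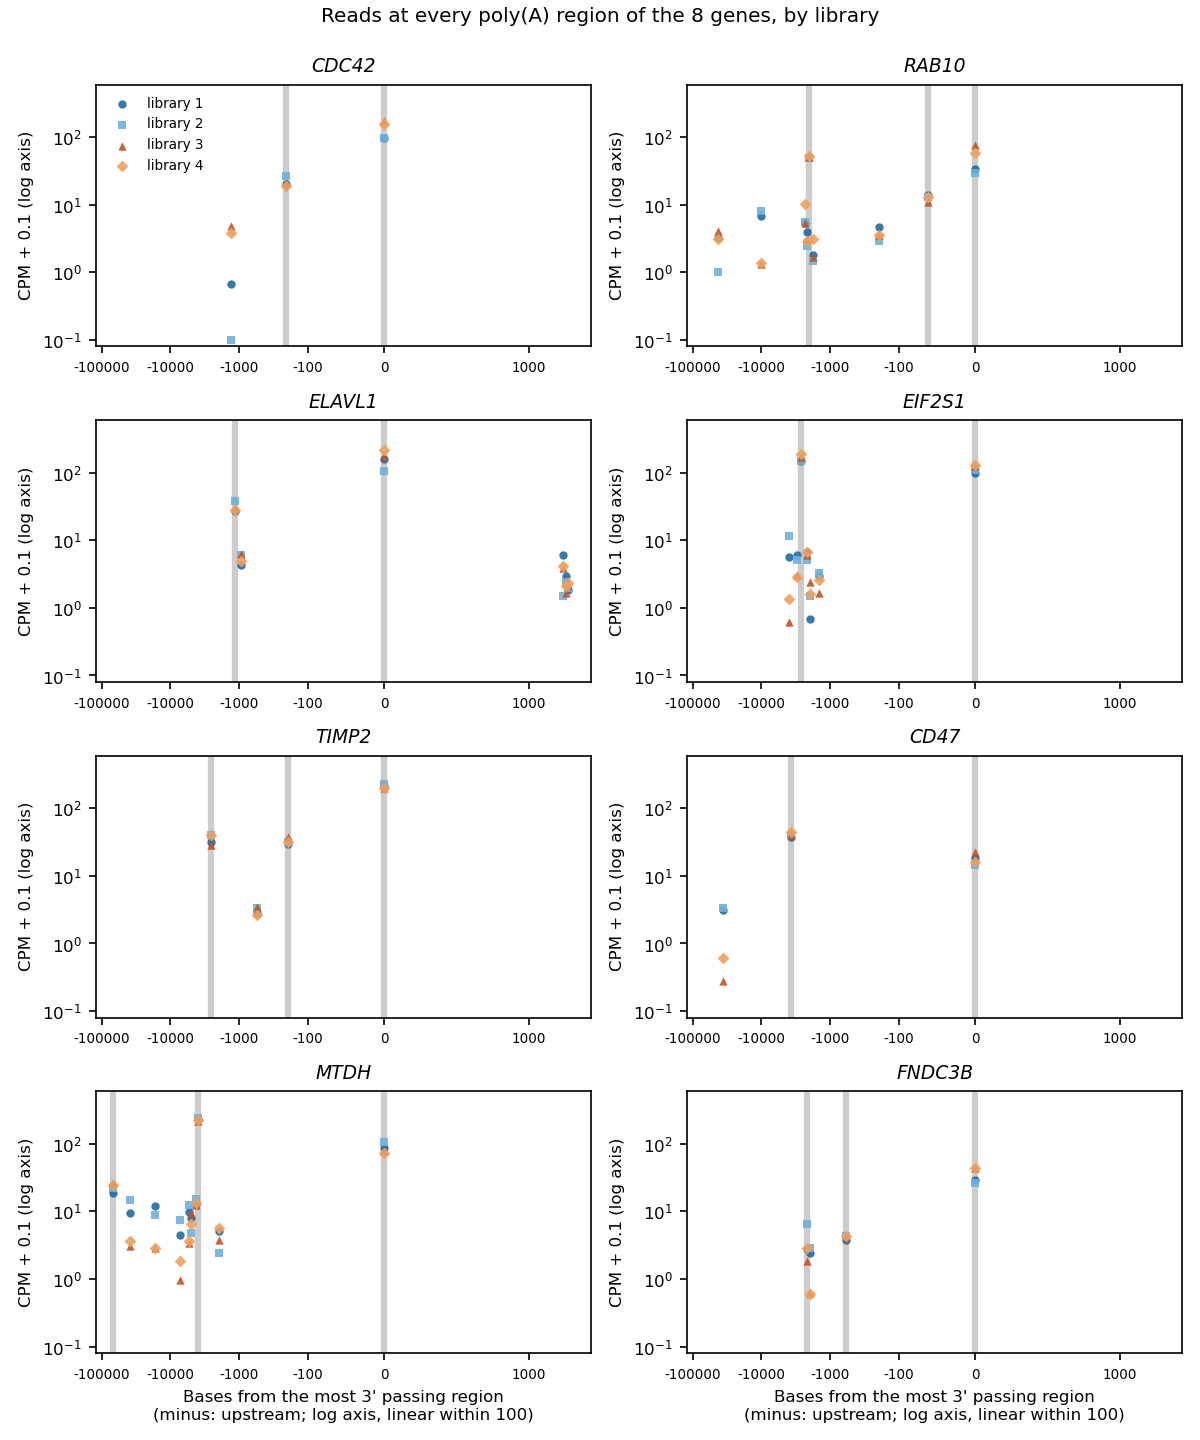
Level of each of the 46 regions, in CPM plus 0.1 on a log axis, against its distance in bases from the most 3' passing region of the gene (log axis, linear within 100 bases), with 1 marker per library and grey bars at the 20 passing regions. Most genes show 1 or 2 strong regions with weaker ones about them, and ELAVL1 has 3 weak regions downstream of its main one.

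CDC42 ended mostly at its most 3' region. That region lies at 22419424 to 22419448 on the plus strand of chromosome 1 (hg19) and had 507, 210, 1005 and 629 reads in libraries 1 to 4. The other passing region, at 22419208 to 22419242, had 106, 57, 119 and 75 reads. Their 3' ends lie 206 bases apart, so the 2 forms differ little in length. The distal share was 82.7%, 78.7%, 89.4% and 89.3%, with a mean of 85.0% ± 5.29 (SD, n = 4). It was above 75% in every library. A weak region at 22418108 to 22418126 had 3, 0, 27 and 15 reads. The 0 of 267 reads in library 2 allows a share of up to 1.12%, and this limit and the Wilson intervals cover counting error only.

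RAB10 divided its reads between 2 places. The most 3' region, at 26360263 to 26360290 on the plus strand of chromosome 2, had 176, 63, 438 and 234 reads. The most 5' passing region, at 26358193 to 26358271, lies 2019 bases upstream and had 264, 106, 288 and 208 reads. The proximal region was the stronger in libraries 1 and 2, and the distal one in libraries 3 and 4. Between them, a region at 26360199 to 26360228, 62 bases before the distal end, had 73, 28, 62 and 51 reads. RAB10 had distal shares of 34.3%, 32.0%, 55.6% and 47.5% (42.3% ± 11.2; SD, n = 4), the widest spread of the 8 genes. With ends within 100 bases counted as 1, it was 54.0%.

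ELAVL1 ended mostly at an intermediate place. The region at 8027147 to 8027182 on the minus strand of chromosome 19 had 822, 231, 1007 and 850 reads, and a proximal one at 8028303 to 8028342, 1156 bases upstream, had 141, 81, 169 and 111. The distal share between them was 85.4%, 74.0%, 85.6% and 88.4% (83.4% ± 6.38; SD, n = 4), with library 2 lowest. Another 3 regions lie 3114, 3491 and 3695 bases downstream of the main one and fell below the share minimum. The farthest, at 8023452 to 8023464, had 9, 4, 12 and 9 reads. It took 0.974% ± 0.147 of the gene's reads (SD, n = 4), and was present in all 4 libraries. Which region counts as distal therefore depends on the minimum.

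EIF2S1 varied least between libraries in its distal share. The proximal region at 67850532 to 67850587 on the plus strand of chromosome 14 had 766, 318, 979 and 744 reads. The distal one at 67853213 to 67853241, 2654 bases further on, had 520, 234, 724 and 512. The proximal region was the stronger in all 4 libraries. EIF2S1 had distal shares of 40.4%, 42.4%, 42.5% and 40.8% (41.5% ± 1.08; SD, n = 4), the smallest spread of the 8 genes. In RefSeq's GRCh38 annotation GPHN overlaps EIF2S1, and reads of such a neighbour on the same strand could not be told apart here.

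TIMP2 ended mostly at its most 3' region, at 76849051 to 76849086 on chromosome 17 (minus strand), which had 1129, 490, 1127 and 797 reads. A region 197 bases upstream, at 76849248 to 76849334, had 156, 68, 217 and 125 reads. The most 5' region, at 76851615 to 76851653 and 2564 bases upstream, had 162, 88, 161 and 159. The 2 upstream regions were thus of like strength, each far below the distal one in every library. For TIMP2 the distal share was 78.0%, 75.9%, 74.9% and 73.7% (75.6% ± 1.82; SD, n = 4). CEP295NL and a long noncoding RNA overlap TIMP2 in the same RefSeq annotation. It also places a pseudogene over CDC42, and pseudogenes and long noncoding RNAs over RAB10 and FNDC3B. None overlaps ELAVL1, CD47 or MTDH.

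CD47 favoured its proximal site. The region at 107765901 to 107765934 on the minus strand of chromosome 3 had 198, 86, 232 and 175 reads, and the distal one at 107762140 to 107762167, 3761 bases further, had 95, 31, 129 and 63. The short form was the stronger in all 4 libraries. For CD47 the distal share was 32.4%, 26.5%, 35.7% and 26.5% (30.3% ± 4.59; SD, n = 4). A weak region, 36906 bases upstream at 107799046 to 107799073, had 16, 7, 1 and 2 reads.

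MTDH also favoured a site that was not its last. The strongest region, at 98738508 to 98738553 on the plus strand of chromosome 8, had 1214, 519, 1262 and 904 reads, 59.8% of the gene's reads. The most 3' region, at 98742472 to 98742495 and 3942 bases further, had 450, 230, 446 and 295. For MTDH the distal share was 25.5%, 28.9%, 24.0% and 22.8% (25.3% ± 2.63; SD, n = 4). The other passing region lies 69085 bases upstream of the last, at 98673364 to 98673410, with 98, 48, 150 and 96 reads. At that distance it is not placed like a tandem site near the others. No annotation of hg19 was used here, so exon, intron or untranslated region cannot be given for it or for any other region.

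FNDC3B, the gene with the fewest reads, ended mostly at its most 3' region, at 172118448 to 172118519 on the plus strand of chromosome 3, with 152, 56, 248 and 176 reads. The regions at 172117898 to 172117925 and at 172116316 to 172116356, 594 and 2163 bases upstream, had 19, 9, 23 and 17 and 14, 14, 10 and 11 reads. Both were weak in every library. The distal share was 82.2%, 70.9%, 88.3% and 86.3% (81.9% ± 7.77; SD, n = 4). With a minimum of 10% in place of 5%, this gene had 1 passing region only.

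**Figure D2:**
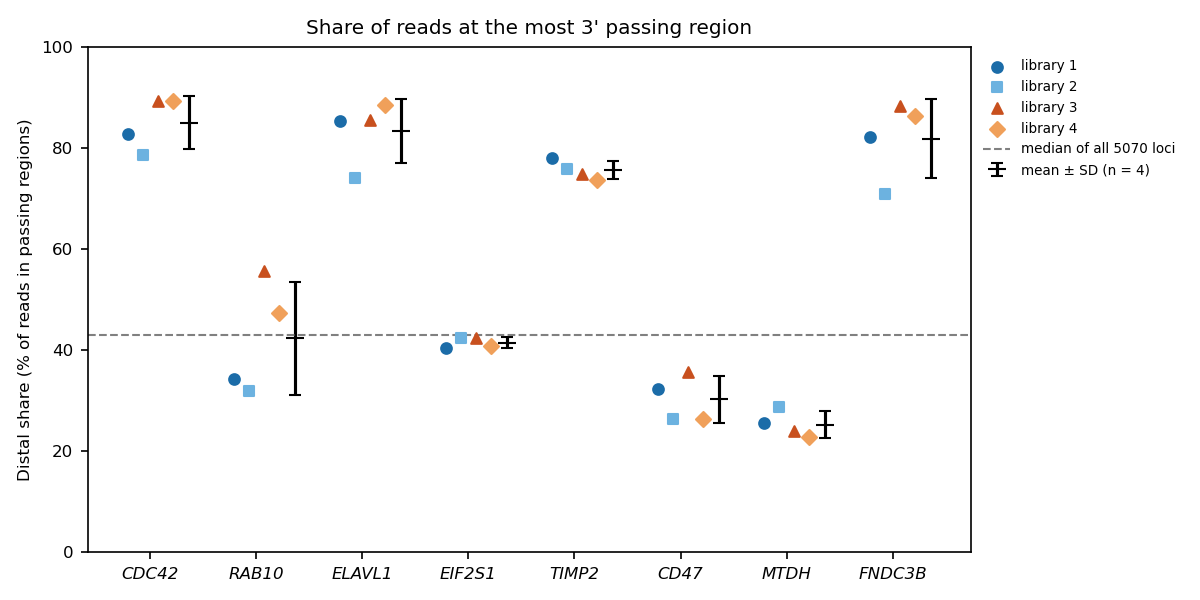
Distal share in percent of reads in passing regions, for each gene and library, with the mean and SD over 4 libraries in black and the median of all 5070 loci as a dashed line. CDC42, ELAVL1, TIMP2 and FNDC3B lie above 70% in every library, and CD47 and MTDH below 40%.

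Distal shares thus differed widely among the 8 genes. The median of their means was 59.0%, against a median of 43.0% ± 0.434 (SD, n = 4) over the 5070 loci of the table that had 2 or more passing regions and 100 reads or more. At the 2970 loci with exactly 2 passing regions, the number that 4 of the 8 genes have, the median was 60.1% ± 0.720 (SD, n = 4), so the number of passing regions bears on this comparison. A locus is a gene window or, elsewhere, a run of regions within 5 kb of the next. Such a run can join neighbouring genes or divide a gene, so these loci are not like the gene windows. The 8 genes were deeper than most, with a median of 3060 reads in passing regions against 637, and their first and last passing ends lay a median of 2363.5 bases apart against 1365. The SD of the distal share over libraries had a median of 4.94 points in the 8 genes and 4.54 over all loci.

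In bases, the mean distance of a read from the most 3' passing end was 30.8 ± 10.9 for CDC42, 192 ± 73.7 for ELAVL1, 242 ± 145 for FNDC3B and 345 ± 47.5 for TIMP2 (SD, n = 4). It was 936 ± 165 for RAB10, 1552 ± 28.6 for EIF2S1 and 2622 ± 173 for CD47 (SD, n = 4). CD47 transcripts thus ended on average over 2 kb short of the last passing site, and those of CDC42 almost at it. For MTDH the value of 7354 ± 838 bases includes the region far upstream (SD, n = 4).

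Whether the most 3' and the most 5' passing regions of a gene differed was tested with edgeR's quasi-likelihood test, with the library as a block and Benjamini-Hochberg adjustment over all 5070 loci. The most 3' region was higher in 5 of the 8 genes and the most 5' one in 2. Over all loci the most 3' region was higher at 45.4% and the most 5' one at 30.6%. A difference in either direction was thus the usual result, found at 76.0% of loci. The median log2 ratio was 2.15 in the 8 genes and 0.54 over all loci. With only the passing regions within 10 kb of the most 3' one, a comparison added after seeing the data, these medians were 1.14 and 0.53, and the most 3' region was higher in 4 genes and the most 5' one in 3, since MTDH changed side. Since both regions hold at least 5% of the reads, the ratio is bounded at either end.

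FNDC3B had the widest ratio, with a log2 ratio of 3.53 (SE 0.42, interval 2.52 to 4.54, adjusted p = 0.000287). It rests on 10 to 14 reads of the proximal region in each library. TIMP2 had 2.60 (SE 0.15, adjusted p = 1.77e-05), CDC42 2.58 (SE 0.25, adjusted p = 0.000115) and ELAVL1 2.40 (SE 0.25, adjusted p = 0.000159). In these 4 genes the distal region was higher in 4 of 4 libraries, by 5.29-fold to 11.5-fold in the fit.

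The ratio was below 0 in CD47, at -1.20 (SE 0.18, interval -1.62 to -0.77, adjusted p = 0.000830), and in EIF2S1, at -0.49 (SE 0.12, interval -0.78 to -0.21, adjusted p = 0.00763). The proximal region was higher in 4 of 4 libraries in both, by 2.29-fold and 1.41-fold. In RAB10 the log2 ratio was -0.12 (SE 0.26, interval -0.74 to 0.49, adjusted p = 0.678). Its libraries lay on both sides of 0, at -0.58, -0.75, 0.60 and 0.17.

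MTDH had a log2 ratio of 1.90 (SE 0.18, adjusted p = 0.000111) against the region far upstream. Against the strongest region, the only other passing one within 10 kb, it was -1.43 (SE 0.13, interval -1.75 to -1.11, adjusted p = 9.22e-05). In the latter comparison, the most 3' region was the lower of the pair in all 4 libraries.

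The direction also turned elsewhere with the regions admitted. With no share minimum, the log2 ratio was -3.89 for ELAVL1, whose weak downstream regions then counted, and 3.63 for CD47, 5.09 for EIF2S1 and 4.11 for RAB10, whose weak upstream regions then counted. Without library 3, RAB10 gained a passing region upstream and its log2 ratio was 2.55 (adjusted p = 0.000416 in edgeR's test). From libraries 1 and 2 alone, that of CD47 was 2.43, because its far upstream region then passed. With TMM factors over the 2 kinds of region, which lower the median of all loci by 0.57 on the log2 scale, all 8 genes kept their direction and RAB10 was called (-0.69, adjusted p = 0.0301). The most 3' region was then the higher one in 48.8% of all calls, against 59.7% without these factors.

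**Figure D3:**
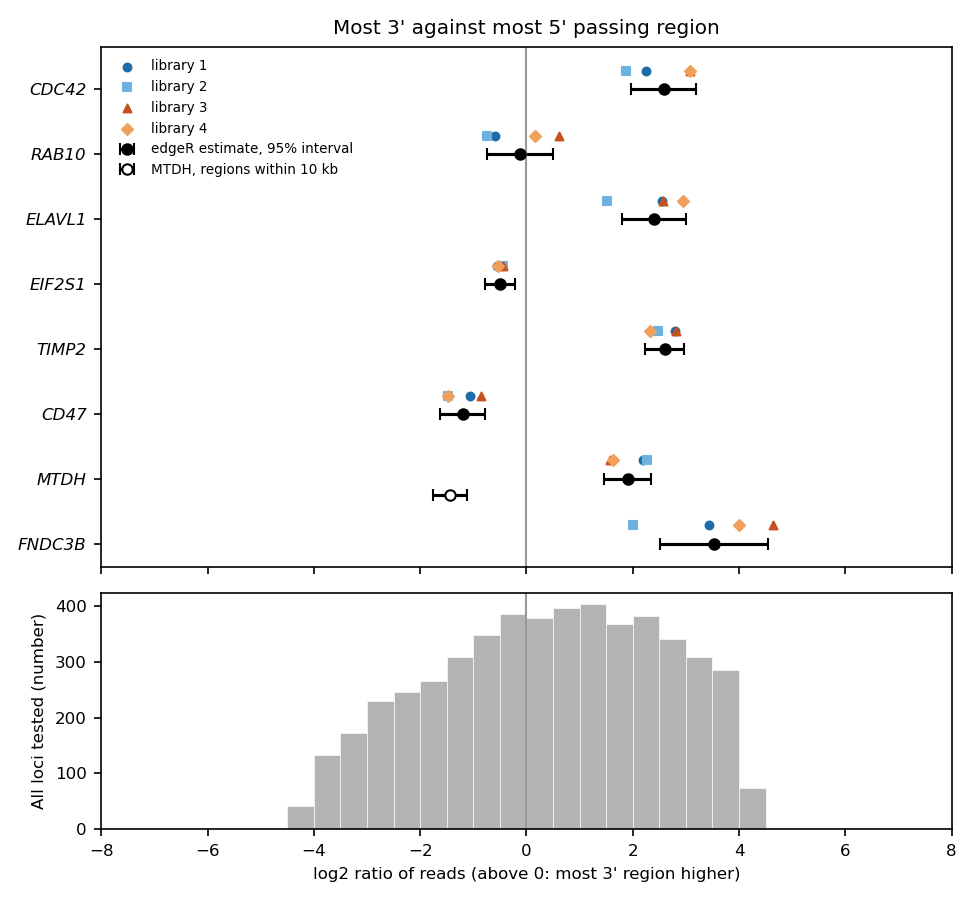
Upper panel: log2 ratio of reads in the most 3' to the most 5' passing region of each gene, with the edgeR estimate and its 95% interval in black, each library in colour, and an open circle for MTDH with regions within 10 kb only. Lower panel: number of loci per bin of 0.5 over all 5070 loci; 5 genes lie above 0, CD47 and EIF2S1 below it, and the interval of RAB10 spans it.

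Between libraries, the distal share was tested by Fisher's exact test, two-sided, on counts thinned to the smallest library, with Benjamini-Hochberg adjustment over all loci within a pair. Such a test compares 2 libraries, not conditions. It treats reads as independent molecules and its p covers counting error only, and duplicate reads may be among those counted. TIMP2, EIF2S1 and CD47 were called in none of the 6 pairs. The smallest unadjusted p over the 6 pairs in the thinned counts was 0.0740 for TIMP2, 0.386 for EIF2S1 and 0.110 for CD47. The distal share of the last was 36.1% in library 3 and 27.3% in library 4, a difference not called at the thinned depth. Thinning discards reads of the deeper libraries. On unthinned counts these CD47 shares were 35.7% and 26.5%. Fisher's exact test then gave an unadjusted p under 0.05, but adjusted p = 0.541. For TIMP2 in libraries 1 and 4, the unthinned test gave an unadjusted p of 0.0124 (adjusted p = 0.0633). TIMP2, EIF2S1 and CD47 were called in no pair unthinned either.

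RAB10 was called in 4 pairs. Its distal share was higher in library 3 than in library 1 by 20.4 points (adjusted p = 0.000289) and than in library 2 by 22.7 points (adjusted p = 1.76e-05), both by Fisher's exact test. It was higher in library 4 than in libraries 1 and 2 by 15.1 and 17.3 points (adjusted p = 0.0199 and 0.00229, Fisher's exact test). With a 10% share minimum the adjusted p of libraries 1 and 4 was 0.109, and with ends within 100 bases merged that of libraries 1 and 4 was 0.535 and that of libraries 2 and 4 was 0.125, by the same Fisher's exact test. Libraries 1 and 2 differed by 2.22 points and libraries 3 and 4 by 5.34, neither called. On unthinned counts the RAB10 shares in libraries 3 and 4 were 55.6% and 47.5%. Fisher's exact test then gave an unadjusted p of 0.00486, but adjusted p = 0.417.

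Library 2 differed from libraries 3 and 4 in 3 more genes. CDC42 had a distal share lower in library 2 by 9.94 and 11.0 points (adjusted p = 0.00569 and 0.00180, Fisher's exact test). On unthinned counts that of CDC42 was also lower in library 1, at 82.7% against 89.4% in library 3 and 89.3% in library 4. Fisher's exact test then gave adjusted p = 0.000831 and 0.00496. FNDC3B was lower in library 2 by 19.8 and 18.2 points (adjusted p = 0.00825 and 0.0193, Fisher's exact test). ELAVL1 was lower in library 2 than in each of the others: by 11.9 points against library 1 (adjusted p = 0.0245), 10.0 against library 3 (adjusted p = 0.00879) and 14.3 against library 4 (adjusted p = 8.21e-06, Fisher's exact test). MTDH went the other way, with a distal share 6.53 points higher in library 2 than in library 4 (adjusted p = 0.0349, Fisher's exact test). On unthinned counts that of MTDH was also higher in library 2 than in library 3, at 28.9% against 24.0%. Fisher's exact test then gave adjusted p = 0.0461.

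By pair, 4 of 8 genes were called between libraries 2 and 3, where 15.7% of all loci were, and 5 of 8 between libraries 2 and 4, where 14.3% were. Between libraries 1 and 3 and between libraries 1 and 4, 1 of 8 was called, against 9.84% and 8.92% of loci. Between libraries 1 and 2 it was 1 of 8 against 0.335%, and between libraries 3 and 4 none of 8 against 0.0789%. In the last pair no gene had an unadjusted p under 0.05 in the thinned counts. The 8 genes hold more reads than the median locus, which raises the chance of a call, so these counts are not set against the shares as a difference.

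Weak regions far upstream varied widely between libraries as a sum. Of the 46 regions, 9 lay over 5 kb upstream of the most 3' passing end, in RAB10, CD47 and MTDH, and 8 of these were below the share minimum. Together these 8 had 56.2, 60.1, 24.7 and 22.8 CPM in libraries 1 to 4, while the 20 passing regions had 1355, 1371, 1540 and 1564. Most of the first sum came from MTDH in every library. The highest library exceeded the lowest 2.63-fold in the first sum and 1.15-fold in the other. In the sum of all 26 regions below the share minimum it was 1.49-fold. No test was made of these sums, and those of weak regions rest on far fewer reads. The weak upstream sum was thus higher in libraries 1 and 2 than in libraries 3 and 4, and the passing sum lower.

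In RAB10 the region at 26350058 to 26350103, 10187 bases upstream, had 35, 17, 7 and 5 reads. In MTDH the region at 98703350 to 98703378 had 49, 32, 17 and 14 reads, and that at 98725925 to 98725940 had 62, 19, 16 and 11, although libraries 3 and 1 were of like depth. The regions of MTDH at 98735239 and 98737035 had 23, 16, 5 and 7 and 51, 27, 19 and 14 reads. Closer to the main sites, the region of EIF2S1 at 67849258 to 67849285, 3956 bases upstream of the last, had 29, 25, 3 and 5 reads. Not all upstream regions did so. Among the 8 weak ones, that of RAB10 at 26316699, 43550 bases upstream, had 3.07, 0.924, 4.03 and 3.01 CPM, and that of MTDH at 98737395 had 7.87, 4.62, 9.28 and 6.53. The far upstream region of MTDH that passed had 18.8, 22.2, 26.3 and 24.1 CPM.

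**Figure D4:**
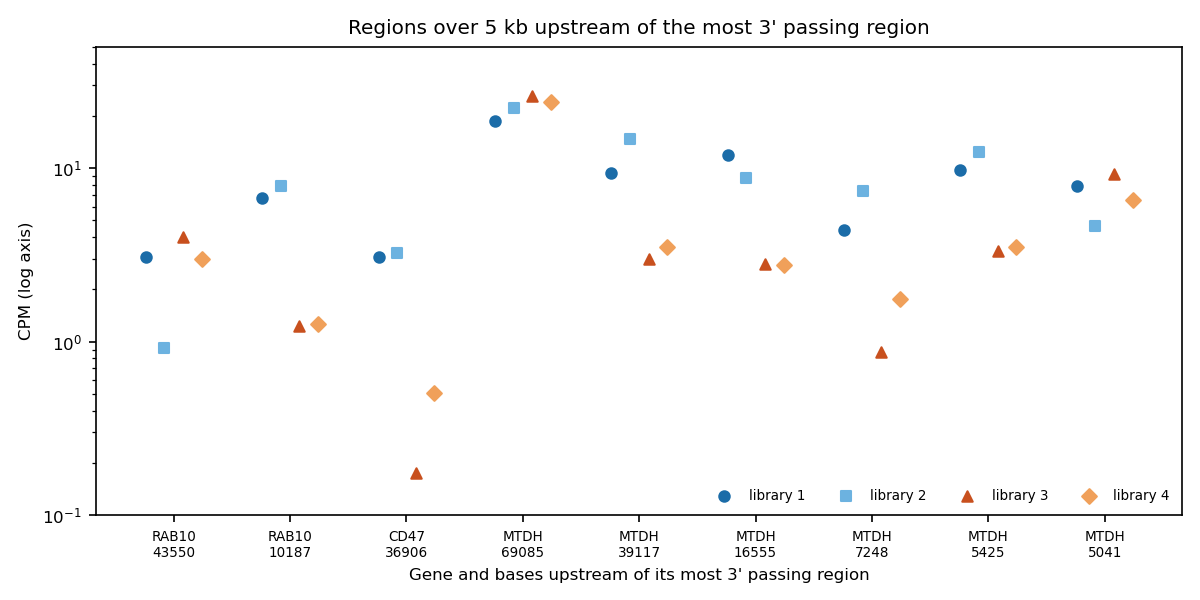
Level in CPM, on a log axis, of the 9 regions over 5 kb upstream of the most 3' passing region, labelled by gene and distance in bases, with 1 marker per library. The CD47 region and several of MTDH and RAB10 spread widely over the libraries, while the MTDH region 69085 bases upstream stays between 18.8 and 26.3 CPM.

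Each region of at least 10 reads was also tested against the rest of its locus between libraries, by the same Fisher's exact test, a comparison chosen after seeing the data. Of the 46 regions, 5 were called between libraries 1 and 3 (10.9%, against 10.5% of 18819 regions over the table) and 5 between libraries 1 and 4 (10.9%, against 9.39%). Between libraries 2 and 3 it was 12 (26.1%, against 15.6%), and between libraries 2 and 4 it was 13 (28.3%, against 14.2%). Between libraries 1 and 2, 1 was called against 0.25%, and between libraries 3 and 4 none against 0.0319%, with 3 at an unadjusted p under 0.05. These genes hold more reads than the median locus, which raises the chance of a call. The regions of a gene divide its reads, so a single shift can be called at several of them. The counts are therefore not set against the shares over all regions as a difference. The share of the EIF2S1 region at 67849258 was higher in library 1 than in library 3 (2.62% against 0.294%, adjusted p = 0.00616, Fisher's exact test). That of the RAB10 region at 26350058 was too (5.37% against 0.287%, adjusted p = 0.00151, Fisher's exact test), both on thinned counts. On full counts the shares in libraries 1 and 3 were 2.07% and 0.169% for the EIF2S1 region. For the RAB10 region they were 5.43% and 0.783%. Each of these 2 regions was called in all 4 pairs that set library 1 or 2 against library 3 or 4, as was the distal region of RAB10 in the opposite direction. The MTDH region at 98703350 was called in the same 4 pairs.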

How the data were processed

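The members and the tests were chosen with earlier results of these data known. The authors deposited raw read counts per poly(A) region and library, per the file headers. Alignment with Bowtie2 2.2.5 to hg19 is from the submitters' processing notes. The sources used here do not give how regions were built, or whether duplicates were removed by the degenerate primer bases. A-rich stretches inside transcripts can be primed by oligo(dT) as well. No hg19 sequence was used here, so regions were not sorted by this, and no sequence around a site is printed.

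Regions within the 8 windows formed a locus each, and all others were joined within 5 kb on a strand. Loci had at least 100 reads. The markers and DICER1 were read in windows placed from general knowledge of hg19. All passing regions of the 8 genes are named and no other locus. Positions are as deposited. Ratios were fitted with edgeR 4.0.16 in R 4.3.3 with library totals as offsets, and Fisher's exact test used scipy 1.17.1. DESeq2 1.42.0 was an alternative. The fits were tested on simulated data. The design text calls the libraries biological replicates, with no label of separate cultures. The p-values of the edgeR and DESeq2 fits measure the spread between these libraries, and those of Fisher's exact test counting error between 2 libraries. The library numbers do not pair groups, since there is 1 group. The regions of a library were compared within it.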

Additional observations from a re-analysis of the deposited data

How the results depend on the processing

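Leaving out 1 library, 3476 to 3719 loci differed between most 3' and most 5' regions (3854 in all), with the most 3' higher at 2072 to 2210 and the most 5' at 1389 to 1509, and 5 to 6 and 2 to 2 of the 8 genes. With a minimum of 500 reads the 3 locus counts were 2511, 1491 and 1020 of 3001. With a 10% share minimum 3 genes had the most 3' region higher, and with no share minimum 1 had the most 5' higher. Without the replicate block the log2 ratio of RAB10 was -0.02, and no gene's call changed; DESeq2 changed none either. Of 119 log2 ratios, 14 reversed. For RAB10 they were 4.11 (no share minimum), 0.25 (ends within 100 bases merged), 0.04, 0.07 and 2.55 (without library 1, 2 or 3; -0.23 without library 4), 2.17 (libraries 1 and 2) and 0.42 (libraries 3 and 4). For ELAVL1, CD47 and EIF2S1 they were -3.89, 3.63 and 5.09 (no share minimum), and for CD47 also 2.43 (libraries 1 and 2). For MTDH they were -1.43 (10% minimum, and again within 10 kb) and -1.31 (libraries 1 and 2). Unthinned, Fisher's exact test called 35, 1185, 915 and 12 loci in the pairs 1 and 2, 1 and 3, 1 and 4, and 3 and 4, against 17, 499, 452 and 4. The last was 2 with a 10% minimum or merged ends. Of the 8 genes, 2 (RAB10 and CDC42) were called unthinned in the pairs 1 and 3, and 1 and 4. In the pair 1 and 4, 0 were called with a 10% minimum or merged ends, where the call of RAB10 was lost. Depth limits FNDC3B most, with 772 reads.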
